A study of Homo sapiens with 10 samples.

Results

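The SOX factors and neural stem markers are 10 genes taken by name from the count files: the transcription factor genes SOX2, SOX3, SOX4, SOX9, SOX11 and SOX12, the intermediate filament genes NES (nestin) and VIM (vimentin), the RNA-binding protein gene MSI1 (Musashi 1) and the fatty acid binding protein gene FABP7. All 10 were present among the 57820 gene identifiers counted, and 8 of them had enough counts to be among the 16006 genes tested. SOX3 and FABP7 did not. Messenger RNA was sequenced after poly(A) selection in 10 libraries of D425 and HD-MB03, a pair of cell lines from Group 3 medulloblastoma, a childhood tumour of the cerebellum.

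The D425 groups were 3 libraries labelled shCRX, 2 of parental cells and 1 of cells with the empty vector. The HD-MB03 groups were 2 libraries labelled shCRX, 1 of parental cells and 1 of cells with the empty vector. The shCRX cells were polyclonal populations carrying a doxycycline-inducible lentiviral hairpin against CRX, a homeobox transcription factor of photoreceptors. Per the labels' protocol, cells received 4 µg/ml doxycycline for 72 h. All cells were grown with fetal bovine serum. The labels name a pair of hairpins without tying a library to either. They say nothing of separate cultures behind the libraries of a group, so the p-values reflect variation among these libraries that may be technical only. Parental and vector libraries of a line were its controls.

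SOX proteins bind DNA through a high mobility group (HMG) box. Those of subgroup B1, SOX2 and SOX3, maintain neural progenitors, those of subgroup C, SOX4, SOX11 and SOX12, act as progenitors become neurons, and SOX9, of subgroup E, acts in neural stem cells and glia. Nestin, vimentin, Musashi 1 and FABP7 are used as markers of neural stem cells and radial glia, and vimentin is also abundant in mesenchymal cells.

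The SOX members are paralogs, so it matters whether reads of one could be counted for another. The following 60 bases open the HMG box in the reference transcript of each SOX member (GENCODE release 29, coding strand, 5′ to 3′). They are shown because the box is the part that the family shares. Capitals mark bases that differ from SOX11.
SOX11: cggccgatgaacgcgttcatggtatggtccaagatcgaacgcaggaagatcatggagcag
SOX4: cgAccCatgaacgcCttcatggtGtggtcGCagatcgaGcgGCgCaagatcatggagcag
SOX12: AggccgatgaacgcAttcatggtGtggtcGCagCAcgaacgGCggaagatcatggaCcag
SOX9: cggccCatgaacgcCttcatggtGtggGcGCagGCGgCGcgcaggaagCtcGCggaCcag
SOX2: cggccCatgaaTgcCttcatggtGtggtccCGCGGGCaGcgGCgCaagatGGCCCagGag
SOX3: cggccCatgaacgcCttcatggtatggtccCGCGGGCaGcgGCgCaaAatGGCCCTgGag
SOX4 and SOX12 each differed from SOX11 at 10 of these bases, SOX9 at 15, and SOX2 and SOX3 at 21. Over the first 210 bases of the box, SOX4 and SOX11 were 88.6% identical, SOX2 and SOX3 85.7%, SOX4 and SOX12 85.2%, SOX11 and SOX12 85.2%, and SOX2 and SOX11 66.7%. The longest exact run shared by the transcripts of any pair of the 10 members was 35 bases, between SOX11 and SOX12, followed by 33 bases between SOX4 and SOX12. A read longer than 35 bases therefore matches 1 member's transcript exactly at most. The sources used here do not give the read length.

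Between 1.96 and 18.06 M reads were counted in genes per library, lowest in the HD-MB03 controls (2.08 and 1.96 M), and 3 counts correspond to 1.53 CPM (a gene's counts scaled to a common library total) in the shallowest library and 0.166 CPM in the deepest. The HD-MB03 controls also held 30.9% and 26.4% unaligned reads, against 4.54% to 7.99% in the other libraries. Library numbers ran from 20 to 62 in D425 shCRX and HD-MB03 controls and from 110 upwards in D425 controls and HD-MB03 shCRX. Within each line, the set of numbers and the arm therefore cannot be told apart. CRX itself had 22.1 ± 2.74 CPM in D425 shCRX and 47.3 ± 17.6 CPM in D425 controls (SD, n = 3 each), but 25.6 ± 3.02 CPM in HD-MB03 shCRX and 12.4 ± 0.113 CPM in HD-MB03 controls (SD, n = 2 each), so HD-MB03 directions below follow a label against which CRX went. Of 8 markers of Group 3 tumours, 7 had a mean of at least 1 CPM in each of the 4 groups of line and arm, while NPR3 was below it. The endothelial markers summed to at most 1.72 CPM in any library. Immune markers reached 14.7 CPM in a D425 control, with PTPRC at 0.564 to 10.6 CPM in D425 controls. Oligodendrocyte markers reached 16.5 CPM in D425 shCRX, 19.6 CPM in D425 controls, 14.2 CPM in HD-MB03 shCRX and 21.8 CPM in HD-MB03 controls. Astrocyte markers summed to 3.22 to 9.45 CPM in D425 and 84.2 to 154 CPM in HD-MB03. Most of the HD-MB03 sum was GJA1, with 149.8 and 96.2 CPM on average in HD-MB03 shCRX and controls. CPM values below are scaled by TMM-adjusted library sizes.

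The subgroup C genes SOX4 and SOX12 were the abundant SOX genes of both lines, while SOX11, of the same subgroup, was at a lower level. Levels per kilobase of exon are compared first, as this scale allows genes to be set side by side. In D425 controls MSI1 averaged 47.3 ± 5.50 CPM per kb, SOX4 32.4 ± 2.66, VIM 30.5 ± 5.95, SOX12 28.6 ± 4.83, NES 6.30 ± 3.50 and SOX11 2.22 ± 0.0305 (SD, n = 3). SOX4, VIM and SOX12 did not differ beyond their spread, and the remaining 4 members were below 0.1 CPM per kb. In HD-MB03 controls MSI1 averaged 80.3 ± 12.8 CPM per kb, SOX12 76.1 ± 25.5, SOX4 60.9 ± 22.3, VIM 14.1 ± 2.39, NES 10.2 ± 0.793, SOX11 8.05 ± 0.426, SOX9 2.01 ± 0.232 and SOX2 1.14 ± 1.61 (SD, n = 2). MSI1, SOX12 and SOX4 did not differ beyond their spread there.

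**Figure D1:**
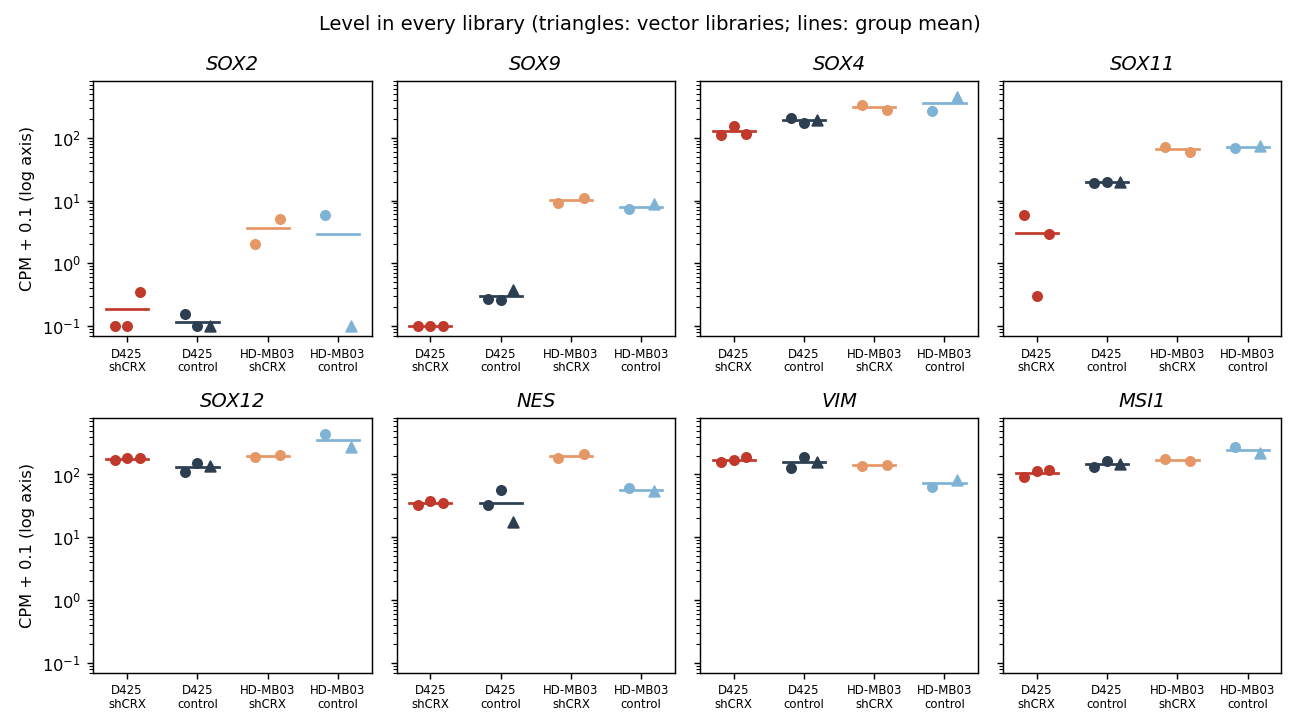
Level of the 8 tested members in every library, as CPM + 0.1 on a log axis, by line and arm. Dots are shCRX or parental libraries, triangles vector libraries and lines group means. SOX2 and SOX9 lie near 0 in all D425 libraries, the D425 shCRX libraries lie below the controls in SOX11, and the HD-MB03 shCRX libraries lie above the controls in NES.

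SOX11 fell in D425 libraries labelled shCRX. In bulk RNA, fewer cells expressing a gene and less RNA per cell cannot be told apart. It had 5.71, 0.207 and 2.81 CPM in the 3 shCRX libraries, from 62, 1 and 11 counts, against 19.0 and 19.4 CPM in the parental libraries and 19.5 CPM in the vector library. Every shCRX library was lower than every control, the controls were nearly equal, and shCRX replicate 2 stood lowest. The log2 fold change was -2.55 ± 0.50 (SE; adjusted p = 0.0202 by edgeR, 95% interval -3.64 to -1.47), a 5.87-fold lower level. SOX11 was the only 1 of the 8 tested members to pass in this comparison, in which 2.97% of all genes passed (257 genes or 1.61% higher and 219 genes or 1.37% lower, but 367 higher and 151 lower when scaled by library totals, a scaling that shifted the median gene by 0.133 on the log2 scale). Among the 8, SOX2 and SOX9 had 1 and 0 counts in D425 shCRX and could not be assessed there, nor in the difference between the lines. The SOX11 call stood close to the threshold. It was lost without the D425 vector library (-2.54, adjusted p = 0.0582 by edgeR) or without D425 shCRX replicate 3 (-2.51, adjusted p = 0.0619 by edgeR), with D425 libraries alone in the fit (adjusted p = 0.0628 by edgeR), and with parental (0.0886) or vector libraries (0.325) as the sole controls, while the fold change kept its sign and stayed between -2.10 and -3.79 in every alternative run.

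In HD-MB03 SOX11 had 72.0 and 59.8 CPM in the shCRX libraries, against 67.6 CPM in the parental and 72.8 CPM in the vector library. The arms overlapped, and the log2 fold change was -0.09 ± 0.52 (SE; adjusted p = 0.955 by edgeR, 95% interval -1.22 to 1.04). The response in D425 minus that in HD-MB03 was -2.46 ± 0.72 in log2 units (adjusted p = 0.0800 by edgeR) and did not pass, so a response particular to D425 was not shown.

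SOX4, another subgroup C gene, did not pass in either line. It had 109, 155 and 113 CPM in D425 shCRX, against 203, 172 and 193 CPM in D425 parental replicates 1 and 2 and the vector library. All 3 shCRX libraries lay below the controls, with a log2 fold change of -0.59 ± 0.22 (SE; adjusted p = 0.184 by edgeR, 95% interval -1.07 to -0.11). In HD-MB03 it had 336 and 277 CPM in shCRX, against 264 CPM in the parental and 449 CPM in the vector library, and the arms overlapped (-0.22 ± 0.27, adjusted p = 0.722 by edgeR). The sign in HD-MB03 turned without the vector library (0.24).

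SOX12, the remaining gene of subgroup C, had opposite signs in the lines, and its difference between them passed. In D425 it had 169, 185 and 182 CPM in shCRX, against 109, 153 and 135.6 CPM in parental replicates 1 and 2 and the vector library. All shCRX libraries lay above the controls (0.43 ± 0.21, SE, 95% interval -0.01 to 0.88, adjusted p = 0.303 by edgeR). In HD-MB03 it had 187 and 203 CPM in shCRX, against 436 CPM in the parental and 269 CPM in the vector library, so that both shCRX libraries lay below both controls (-0.85 ± 0.25, SE, 95% interval -1.40 to -0.31, adjusted p = 0.118 by edgeR). The difference between the responses, D425 minus HD-MB03, was 1.29 ± 0.33 on the log2 scale (SE, adjusted p = 0.0449 by edgeR), and it was the only 1 of the 8 members to pass, against 4.16% of all genes (2.67% higher and 1.49% lower). That call was lost without any 1 of 7 of the 10 libraries (D425 parental replicate 1, the D425 vector library, D425 shCRX replicates 2 and 3, the HD-MB03 parental library and HD-MB03 shCRX replicates 1 and 2), with differences of 0.87 to 1.33. It was also lost after correction for GC content and length (0.67, adjusted p = 0.214), and SOX12 has a GC content of 62% against 49% for the median gene. Across 15581 genes, which are not independent, the Spearman correlation of fold change with GC content was 0.286 in D425 and -0.363 in HD-MB03. NES and MSI1, with a GC content of 59.3% and 59.1%, had log2 fold changes of 1.79 and -0.55 in HD-MB03. Whether GC content caused the SOX12 difference was not tested. The unaligned share in HD-MB03 and the library-number set in both lines moved with the arms, and their part in the difference was not tested.

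SOX12 is also the SOX member with the most GC-rich promoter among those in the RefSeq promoter table. The 300 bases around its start (GRCh38.p14, chr20:325302-325601, plus strand, 5′ to 3′, 250 bases before to 50 after the start) are printed because the gene passed the test of the difference. No capitals appear as no motif searched was found.
SOX12 promoter: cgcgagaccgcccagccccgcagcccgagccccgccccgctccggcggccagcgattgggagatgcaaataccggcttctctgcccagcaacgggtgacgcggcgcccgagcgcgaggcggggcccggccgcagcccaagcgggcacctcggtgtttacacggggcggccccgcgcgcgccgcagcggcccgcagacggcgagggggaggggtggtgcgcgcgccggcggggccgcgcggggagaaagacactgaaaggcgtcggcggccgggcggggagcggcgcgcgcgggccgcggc
This window is 80.3% G or C and holds 54 CG dinucleotides, against medians of 58.7% and 14 over all 35116 promoters of that table. The letters TAATCC, the core bound by CRX, on either strand occurred in 0 of the 7 members listed there (SOX2, SOX3, SOX4, SOX12, NES, VIM and FABP7) and in 6.36% of all promoters. The letters AACAAT, a core bound by SOX proteins, on either strand also occurred in 0 of 7 and in 10.1% of all promoters. No match says only that these letters are not in this window.

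**Figure D2:**
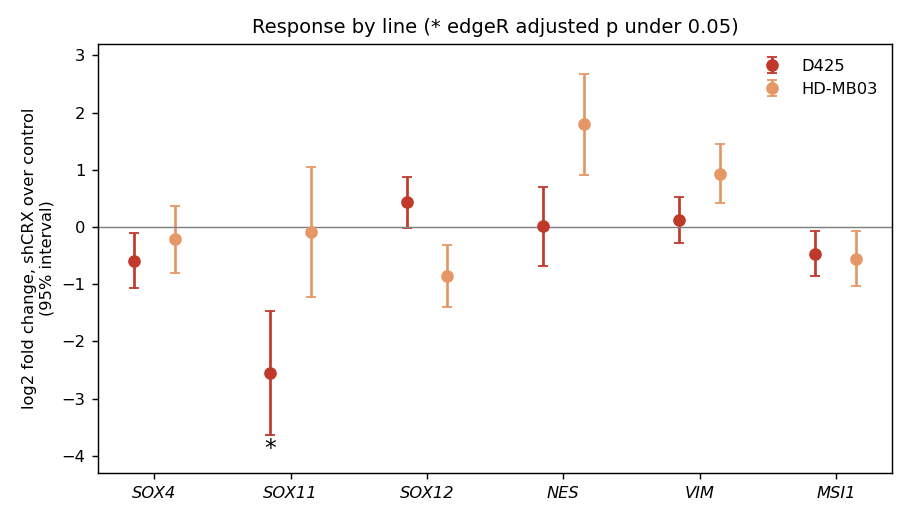
Log2 fold change of shCRX over control (vertical axis) with its 95% interval for 6 members in D425 and HD-MB03. SOX11 in D425 lies at -2.55 and is the only value that passed. SOX12 has opposite signs in the lines, and NES lies at 1.79 in HD-MB03 and 0.01 in D425.

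The intermediate filament gene NES had more reads in HD-MB03 shCRX, close to the threshold but not past it. It had 183 and 210 CPM in HD-MB03 shCRX, against 59.8 CPM in the parental and 53.6 CPM in the vector library, with no overlap and little spread within either arm. The log2 fold change was 1.79 ± 0.41 (SE; adjusted p = 0.0521 by edgeR, 95% interval 0.91 to 2.68), a 3.47-fold higher level. The value rests on 5499 counts in shCRX and 215 in the controls. It passed with HD-MB03 libraries alone in the fit (1.75, adjusted p = 0.00292 by edgeR), after thinning all libraries to equal depth (1.65, adjusted p = 0.0221 by edgeR), after the GC and length correction (1.96, adjusted p = 0.0313 by edgeR) and by DESeq2 (1.72, adjusted p = 0.00224). In all it passed in 7 alternative settings and not in 5, limma-voom among the 5 (adjusted p = 0.0936). With a library left out it passed in 2 runs and not in 8. The HD-MB03 controls differ from shCRX also in unaligned share and number set, whose part was not tested.

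In D425 NES had 32.5, 38.2 and 35.2 CPM in shCRX, against 32.2 and 55.8 CPM in the parental libraries and 17.2 CPM in the vector library. The shCRX values were close together and lay inside the wide range of the controls (0.01 ± 0.32, SE, 95% interval -0.69 to 0.71, adjusted p = 0.998 by edgeR). The vector library was lower than both parental libraries, by a log2 fold change of -1.35 ± 0.35 (SE, adjusted p = 1 by edgeR). The vector arm was 1 library, assumed in this fit to vary like the other groups. NES had the only unadjusted p under 0.05 of the 8 members in that comparison (0.00352), in which 0% of all genes passed by edgeR (0 of 16006, with 516 genes at an unadjusted p under 0.05) and 0 by limma-voom. Without the vector library the log2 fold change of shCRX over the parental libraries was -0.31. For NES, the D425 response minus the HD-MB03 response was -1.78 ± 0.51 in log2 units (adjusted p = 0.0741 by edgeR), which passed without the D425 vector library (-2.10, adjusted p = 0.0138 by edgeR).

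VIM, the other intermediate filament gene, had 137 and 141 CPM in HD-MB03 shCRX, against 63.9 CPM in the parental and 81.4 CPM in the vector library. Both shCRX libraries lay above both controls (0.94 ± 0.24, SE, adjusted p = 0.0779 by edgeR). In D425 VIM had 158, 170 and 187 CPM in shCRX, against 127, 188 and 158 CPM in parental replicates 1 and 2 and the vector library, and the arms overlapped (0.13 ± 0.19, adjusted p = 0.795 by edgeR). The summed CPM of 10 fibroblast and mesenchyme markers was 60.1 to 126 in D425 shCRX and 31.8 to 45.1 in D425 controls, and 11.7 to 17.1 in HD-MB03 shCRX and 17.2 to 31.1 in HD-MB03 controls, with PDGFRA at 0 in D425 shCRX and LUM and POSTN at 0 in HD-MB03 controls. Among them, PDGFRB had 1.96 CPM in HD-MB03 shCRX and 5.82 CPM in HD-MB03 controls, FBN1 had 4.998 CPM in HD-MB03 shCRX and 11.4 CPM in HD-MB03 controls, whereas COL1A2 and COL3A1 had 1.14 and 1.39 CPM in HD-MB03 shCRX and 0.260 and 0.268 CPM in HD-MB03 controls. Of the 7 markers tested, 4 had a positive log2 fold change in HD-MB03 (median 0.61), and their part in the values of VIM was not tested. VIM-AS1, whose exons overlap VIM on the opposite strand in the reference annotation, had at most 2.81 CPM in any library. Without a stated strand setting, reads of VIM and VIM-AS1 in their overlap cannot be told apart.

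MSI1, which encodes an RNA-binding translational regulator of neural progenitors, was lower in shCRX in both lines without passing in either. It had 89.5, 113 and 116 CPM in D425 shCRX, against 130, 164 and 144 CPM in parental replicates 1 and 2 and the vector library (-0.46 ± 0.18, SE, adjusted p = 0.200 by edgeR). It had 175 and 163 CPM in HD-MB03 shCRX, against 276 CPM in the parental and 220 CPM in the vector library (-0.55 ± 0.22, SE, adjusted p = 0.227 by edgeR). No shCRX library reached a control of its line. In the mean of the lines the log2 fold change was -0.51 ± 0.14 (SE; adjusted p = 0.184 by edgeR, 95% interval -0.82 to -0.20). A difference of equal size between the number sets would cancel in that mean.

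Counted over the members, the arms did not overlap in D425 for SOX11, SOX4 and MSI1, lower in shCRX, and for SOX12, higher, where 11.5% of all tested genes were without overlap and lower and 11.5% without overlap and higher. SOX9 in D425 also showed no overlap, but its 0 counts in shCRX came from libraries in which 3 counts are 0.315, 0.634 and 0.824 CPM, all above its control levels, so its order was not detectable at this depth. In HD-MB03 the arms did not overlap for NES, VIM and SOX9, higher in shCRX, and for SOX12 and MSI1, lower, where 30.4% of all tested genes were without overlap and higher and 21.9% without overlap and lower. All 5 in HD-MB03 were tested members, so they are 5 of 8 on the footing of these shares, and whether that differs from the shares was not tested. In HD-MB03 edgeR called 0 of 8 tested members, with 4 at an unadjusted p under 0.05, where 1.51% of all genes passed (0.262% higher and 1.24% lower) and 2747 of 16006 had an unadjusted p under 0.05. DESeq2 called 3 members (SOX12, NES and VIM) and 806 genes in all, and limma-voom called 0 members and 174 genes. In the mean of the lines edgeR called 0 of 8, with 6 at an unadjusted p under 0.05, where 0.225% of all genes passed (0.0187% higher and 0.206% lower) and 2118 of 16006 had an unadjusted p under 0.05. SOX9 was among these 6, resting on 0 counts in D425 shCRX. DESeq2 called 4 members (SOX11, NES, MSI1 and VIM) and 401 genes in all, and limma-voom called 0 members and 24 genes. The median log2 fold change of the 8 members was -0.23 in D425 and 0.10 in HD-MB03, against 0.02 and 0.10 over all genes tested. The D425 median includes fitted values of SOX2 and SOX9, which had 1 and 0 counts in D425 shCRX, so it does not summarise detectable members alone.

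SOX2 was the 1 member carried by a single control library, defined as at least 10 counts in the highest control of a line and at least 3 times the CPM of the next control. In HD-MB03 it had 27 and 71 counts in shCRX (1.93 and 5.07 CPM), against 11 counts in the parental library (5.72 CPM) and 0 in the vector library. The parental library thus lay close to the higher shCRX library, and the vector library, in which 3 counts would be 1.53 CPM, held none. The log2 fold change of 0.28 ± 1.03 in HD-MB03 (SE, adjusted p = 0.918 by edgeR) became -0.68 without the vector library. In D425 SOX2 had 1 count in the shCRX libraries together and 1 in the controls, under the floor of 3 counts, so no fold is given. SOX2-OT, the long noncoding gene within which SOX2 lies on the same strand, had 0 to 3 counts per library, with no exon overlapping SOX2 in the reference annotation.

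SOX9 had 8.92 and 11.1 CPM in HD-MB03 shCRX, against 7.28 CPM in the parental and 8.57 CPM in the vector library, from 280 counts in shCRX and 30 in the controls. Both shCRX libraries lay just above both controls (0.34 ± 0.47, SE, adjusted p = 0.754 by edgeR). In D425 it had 0 counts in the 3 shCRX libraries, where 3 counts would be 0.168 CPM over the 17.9 M reads of the group, and 8 counts in the controls (0.191 CPM, exact Poisson 95% interval 0.0825 to 0.377). The upper 95% limit of the 0 counts was 0.206 CPM, so the intervals of the arms overlapped, and edgeR did not call SOX9 (adjusted p = 0.148). SOX9-AS1, on the opposite strand, had 3 and 4 counts in HD-MB03 shCRX and 0 in the other 8 libraries. Intervals and floors cover counting error alone and use unscaled library totals.

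SOX3 had 0 counts in all 10 libraries, which allows up to 0.0502 CPM over the 59.8 M reads of D425 and 0.0913 CPM over the 32.9 M reads of HD-MB03. FABP7, a carrier of fatty acids in radial glia, had 1 count in D425 shCRX and 8 in D425 controls, a ratio of controls to shCRX of 3.42 with a counting interval of 0.459 to 152, and 0 in HD-MB03. SOX3 was thus not detectable at this depth in either line, nor FABP7 in HD-MB03, where 3 counts are 0.0913 CPM.

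The larger contrast was between the lines. SOX11, SOX4, SOX12, NES and MSI1 were lower and VIM was higher in D425 than in HD-MB03 averaged over the arms, each passing by edgeR, where 46% of all genes passed, 24.4% higher and 21.6% lower. SOX2 and SOX9 entered the tested set through HD-MB03 alone, so they are described by their counts without a test. D425 and HD-MB03 each contribute libraries of both number sets to this comparison. The log2 fold change was -3.09 ± 0.36 for SOX11 (SE, adjusted p = 3.48e-05 by edgeR), -1.10 ± 0.17 for SOX4 (adjusted p = 2.41e-04 by edgeR) and -0.77 ± 0.16 for SOX12 (adjusted p = 0.00181 by edgeR). It was -1.59 ± 0.25 for NES (adjusted p = 3.17e-04 by edgeR), -0.72 ± 0.14 for MSI1 (adjusted p = 0.00120 by edgeR) and 0.71 ± 0.15 for VIM (adjusted p = 0.00227 by edgeR). VIM alone of these 6 was higher in D425.

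SOX9 and SOX2 were nearly restricted to HD-MB03 by count. SOX9 had 8 counts in 6 D425 libraries and 310 in 4 HD-MB03 libraries, a ratio of HD-MB03 to D425 of 70.5 with an exact counting interval of 35.3 to 165. Each HD-MB03 library held at least 14 counts, and no D425 library more than 3. SOX2 had 2 counts in D425 and 109 in HD-MB03, a ratio of 99.1 with a counting interval of 26.8 to 829. The HD-MB03 vector library held 0 of these counts, so SOX2 did not separate every library of the lines. These intervals do not cover the spread between libraries.

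The order of the lines was then compared in the 4 pairings of line and arm, of which one lies within the library numbers 20 to 62 (D425 shCRX against HD-MB03 controls) and one within 110 and above (D425 controls against HD-MB03 shCRX). SOX4 and SOX11 were called lower in D425 in 4 of 4 pairings. Of all genes, 30.7% passed in the pairing of low numbers (16% higher and 14.7% lower), 31.2% in that of high numbers (15.5% higher and 15.8% lower), 34.3% between the controls (17.4% higher and 16.8% lower) and 32.8% between the shCRX libraries (16.9% higher and 15.9% lower). The log2 fold change of SOX11 was -4.42 ± 0.54 within the low numbers and -1.77 ± 0.46 within the high numbers (SE, adjusted p = 1.44e-04 and 0.0123 by edgeR). That of SOX4 was -1.504 ± 0.25 and -0.70 ± 0.24 (adjusted p = 7.03e-04 and 0.0448 by edgeR). MSI1 was called in 3 of 4 pairings, and SOX12, NES and VIM in 2 of 4. NES was called in both pairings with HD-MB03 shCRX (-2.49 ± 0.35 against D425 controls and -2.48 ± 0.35 against D425 shCRX, adjusted p = 2.25e-04 and 2.60e-04 by edgeR) and in neither with HD-MB03 controls (-0.68 ± 0.37 for D425 shCRX and -0.69 ± 0.37 for D425 controls, adjusted p = 0.176 and 0.161 by edgeR). VIM was called in both pairings with HD-MB03 controls (1.24 ± 0.23 and 1.12 ± 0.22) and in neither with HD-MB03 shCRX. SOX12 was likewise called with HD-MB03 controls and not with HD-MB03 shCRX, so that NES, VIM and SOX12 were each called against one HD-MB03 arm and not the other.

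**Figure D3:**
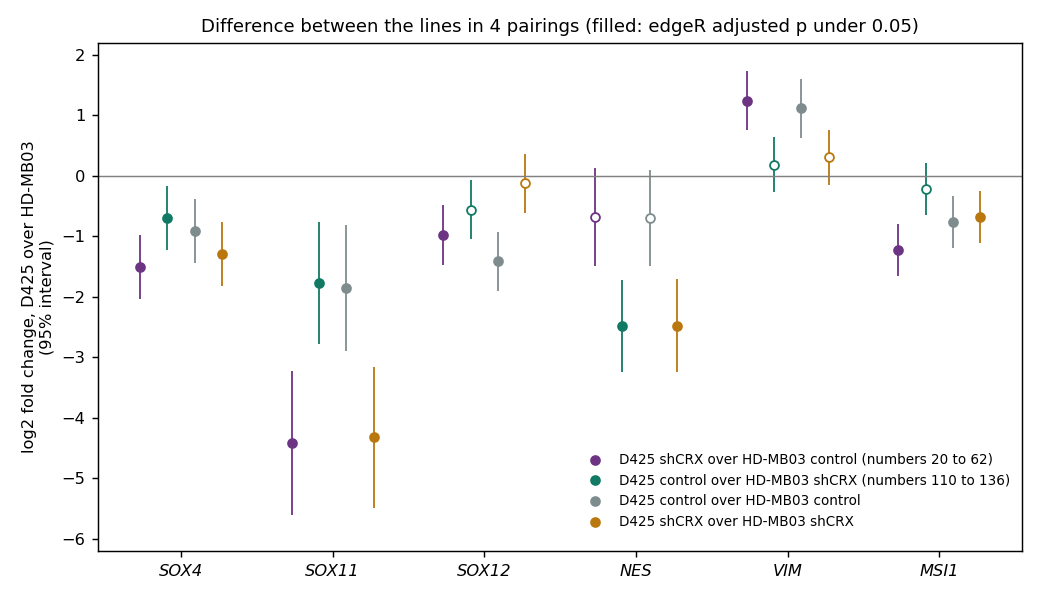
Log2 fold change of D425 over HD-MB03 (vertical axis) with its 95% interval for 6 members in the 4 pairings of line and arm, of which the first 2 lie within a library-number set. Filled points passed. SOX4 and SOX11 lie below 0 and passed in all 4 pairings, while NES passed with HD-MB03 shCRX alone and VIM with HD-MB03 controls alone. SOX2 and SOX9 are not drawn because a D425 arm held 0 or 1 count.

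The other genes of the SOX family were compared with a list of 13, of which 6 had enough counts to be tested. In D425 SOX7, a subgroup F gene of endothelial and endodermal development, fell to 9.12, 10.1 and 18.6 CPM in shCRX, against 45.6, 25.95 and 30.7 CPM in parental replicates 1 and 2 and the vector library (-1.46 ± 0.33, adjusted p = 0.0333 by edgeR), and the other 5 did not pass. In HD-MB03 SOX7 had 32.6 and 30.6 CPM in shCRX, against 7.28 CPM in the parental and 15.5 CPM in the vector library, without passing (1.48, adjusted p = 0.120 by edgeR). There 0 of 6 passed by edgeR, with 1 at an unadjusted p under 0.05, while DESeq2 called 1 and limma-voom 0. For SOX7, the D425 response minus the HD-MB03 response was -2.94 ± 0.55 in log2 units (adjusted p = 0.0117 by edgeR). SOX7 averaged 12.6 and 11.4 CPM in the groups of low library numbers (D425 shCRX and HD-MB03 controls). It averaged 34.1 and 31.6 CPM in those of high numbers (D425 controls and HD-MB03 shCRX). The number set and a difference in response therefore cannot be told apart for SOX7. SOX5 and SOX6, subgroup D genes that act beside SOX9 in cartilage and in the nervous system, were lower in D425 than in HD-MB03 (-2.06 ± 0.17 and -2.01 ± 0.25, adjusted p = 8.42e-07 and 3.77e-05 by edgeR). SOX5 had 12.8 to 21.5 CPM in D425 shCRX, 26.8 to 32.2 CPM in D425 controls, 90.9 to 121 CPM in HD-MB03 shCRX and 79.0 to 91.0 CPM in HD-MB03 controls. SOX21, a subgroup B2 gene known in chick to promote neuronal differentiation, went the other way, with 72 and 293 counts in D425 shCRX and controls and 5 and 0 in HD-MB03 shCRX and controls. SOX8, a subgroup E relative of SOX9, averaged 0.0614 and 0.0537 CPM in D425 shCRX and controls and 1.57 and 1.05 CPM in HD-MB03 shCRX and controls. By list, 0 rose and 1 fell in D425 with a median of -0.89, against 1.61% higher, 1.37% lower and a median of 0.02 over all genes. Between the lines 1 of 6 was higher and 3 were lower in D425, against 24.4% and 21.6% of all genes. SOX8 and SOX21 had few or no counts in one line, and their calls, like those of SOX2 and SOX9, rest on a filter passed through the other.

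**Figure D4:**
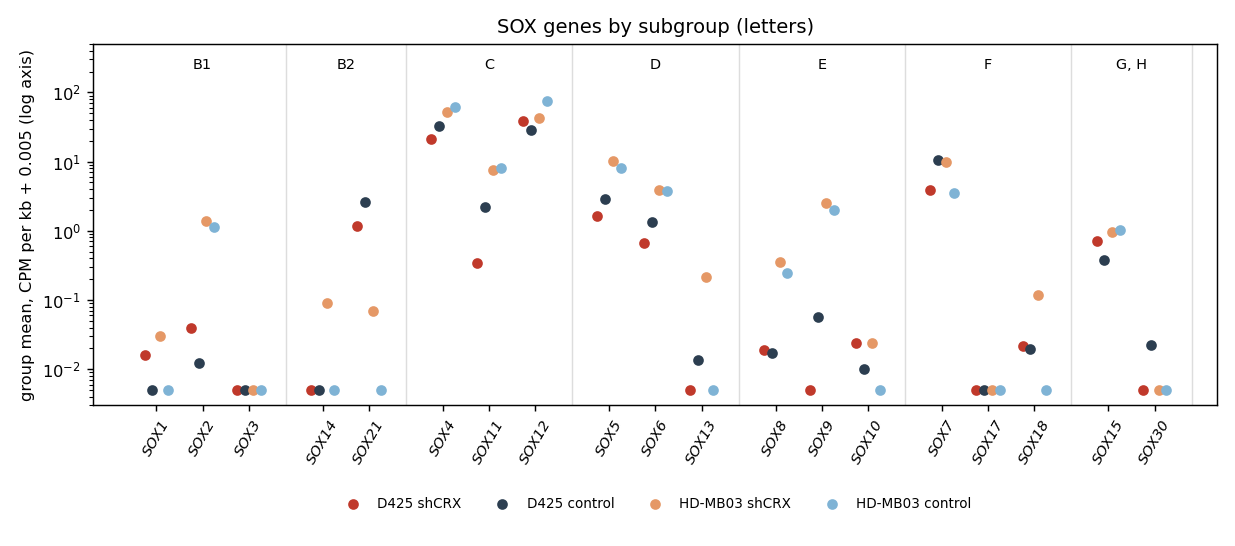
Group mean level of 19 SOX genes as CPM per kb of exon + 0.005 on a log axis, by subgroup (letters above) and by line and arm. Subgroup C genes SOX4 and SOX12 stand highest in all 4 groups, at 21.5 to 76.1 CPM per kb, while SOX3 and SOX17 are at 0.

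Of 20 further genes of radial glia and neural stem cells, 17 were tested. In D425 NOTCH1, the receptor gene of the Notch pathway, rose (13.3 ± 4.46 CPM in shCRX and 6.27 ± 0.774 CPM in controls, SD, n = 3 each, 1.06 ± 0.25 on the log2 scale, adjusted p = 0.0389 by edgeR). SLC1A3, the glial glutamate transporter gene, fell (22.5 ± 7.76 CPM in shCRX and 63.2 ± 16.3 CPM in controls, -1.497 ± 0.28, adjusted p = 0.0144 by edgeR). MSI2, the paralog of MSI1, fell as well, with 192 ± 14.8 CPM in shCRX and 322 ± 19.5 CPM in controls (-0.75 ± 0.17, adjusted p = 0.0317 by edgeR). NFIB, a nuclear factor I gene (-1.20, adjusted p = 0.0313 by edgeR), and PROM1, which encodes the stem cell surface protein CD133 (-0.89, adjusted p = 0.0473 by edgeR), also fell, so 1 of 17 rose and 4 fell, with a median of -0.36, against 1.61% higher, 1.37% lower and a median of 0.02 over all genes. In D425 DESeq2 called 5 of the 17 and limma-voom 3. In HD-MB03 shCRX and controls NOTCH1 had 166.9 and 292.7 CPM, and SLC1A3 had 46.45 and 29.73 CPM. Their D425 minus HD-MB03 responses passed (1.87 ± 0.37 and -2.14 ± 0.45, adjusted p = 0.0152 and 0.0203 by edgeR). Of the 17, 1 passed higher and 1 lower there, against 2.67% and 1.49% of all genes. That difference cannot be told apart from the number sets. Within HD-MB03 0 of 17 passed by edgeR, with 3 at an unadjusted p under 0.05 and a median of 0.03, while DESeq2 called 1 and limma-voom 0. Between the lines 4 were higher and 9 lower in D425, against 24.4% and 21.6% of all genes. The higher were POU3F3 (6.19 ± 1.44), POU3F2 (6.11 ± 1.47), HOPX (2.01 ± 0.69) and LHX2 (1.63 ± 0.48). POU3F2 and POU3F3 had 0 counts in HD-MB03 controls, and FABP5, among the lower, had 0 and 1 counts in D425 shCRX and controls. In HD-MB03 shCRX and controls HOPX had 11 and 2 counts and LHX2 had 15 and 4 counts. Calls of such genes, like those of SOX8 and SOX21, rest on a filter passed through the other line. Among the lower were NOTCH1 (-4.60 ± 0.19, adjusted p = 3.31e-09 by edgeR), PTPRZ1, a receptor phosphatase gene of radial glia (-4.37 ± 0.26, adjusted p = 4.97e-08 by edgeR), NFIB (-3.20 ± 0.20, adjusted p = 8.84e-08 by edgeR) and PAX6, a progenitor homeobox gene (-2.45 ± 0.30, adjusted p = 3.58e-05 by edgeR).

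Among 9 analysed intermediate filament genes other than NES and VIM, the lamin gene LMNA (43.3 ± 5.08 CPM in shCRX and 19.9 ± 2.57 CPM in controls, SD, n = 3 each, 1.13 ± 0.20 on the log2 scale, adjusted p = 0.0105 by edgeR) and the peripherin gene PRPH (2.41 ± 0.55, adjusted p = 0.0362 by edgeR) rose in D425, while 0 of 9 passed in HD-MB03 by edgeR (1 at an unadjusted p under 0.05), DESeq2 or limma-voom. Of all genes, 1.61% passed higher and 1.37% lower in D425, and 1.51% passed in HD-MB03. LMNA had 66.5 and 75.5 CPM in HD-MB03 shCRX and controls. Its D425 minus HD-MB03 response was 1.31 ± 0.31 in log2 units (adjusted p = 0.0340 by edgeR), the 1 of the 9 to pass, against 4.16% of all genes. Between the lines 3 of the 9 were higher in D425 (NEFH, GFAP and PRPH) and 3 lower (SYNM, LMNA and LMNB1), against 24.4% and 21.6% of all genes. GFAP, NEFH and PRPH had few or no counts in HD-MB03, so their calls rest on a filter passed through D425. NEFH, the heavy neurofilament gene, was counted mainly in D425, at 263 and 261 CPM in D425 shCRX and controls and 0.393 and 0.528 CPM in HD-MB03 shCRX and controls. Of 14 neuronal differentiation genes 8 were tested, and in D425 the synaptophysin gene SYP alone passed by edgeR, where 1.37% of all genes passed lower. SYP had 74.7 ± 15.3 CPM in shCRX and 240.5 ± 30.7 CPM in controls (SD, n = 3 each, -1.69 ± 0.19, adjusted p = 9.34e-04 by edgeR). It had 165.2 and 111.5 CPM in HD-MB03 shCRX and controls, and its D425 minus HD-MB03 response was -2.26 ± 0.30 (adjusted p = 0.0018 by edgeR). For LMNA and SYP alike, that difference cannot be told apart from the number sets. DCX and TUBB3, genes of young neurons that subgroup C proteins are known to activate in mouse, had mean levels of 0.539 and 0.708 CPM in D425 shCRX, 1.23 and 0.239 CPM in D425 controls, 1.89 and 0.464 CPM in HD-MB03 shCRX and 4.95 and 0 CPM in HD-MB03 controls. The DCX mean of HD-MB03 controls was carried by a single library, with 9.36 CPM against 0.536 CPM in the other. DCX did not pass in either line (adjusted p = 0.639 by edgeR in D425 and 0.494 in HD-MB03), and TUBB3 did not have enough counts to be tested.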

How the data were processed

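Poly(A)-selected RNA of 10 libraries was sequenced by the authors. The deposited values are read counts per gene, not normalised; the submitters' processing notes name bcl2fastq, HISAT2, HTSeq, DESeq2 and the human build GRCh37. Versions, read length and the strand setting of the counting were not given in the sources used here. Gene symbols, exon lengths, GC content and transcript sequences came from GENCODE release 29 and promoters from RefSeq (GRCh38.p14), so the files' own coordinates were not used. A symbol was matched for 51996 of 57820 identifiers, all 10 members included, and the 5 HTSeq summary entries were left out of library sizes.

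The quasi-likelihood test of edgeR 4.0.16 (R 4.3.3), in its robust form, was run on TMM-scaled libraries after filterByExpr, with a mean for each of the 4 combinations of line and arm (6 residual degrees of freedom), two-sided with Benjamini-Hochberg adjustment over all 16006 genes at a threshold of 0.05. A fit of 6 groups set vector against parental cells. The biological coefficient of variation was 26%. The script was tested on simulated data. Alternatives used limma 3.58.1 and DESeq2 1.42.0, among others. No libraries of a group agreed within sampling noise (chi-square of 10.0 to 58.7 for each degree of freedom). The members, lists and named genes were chosen with earlier results of these data known. The genes named are the members, called genes of the lists, the antisense partners and, by correlation of log2 CPM, the 2 genes most like each member, of which the first is given for 6 members and the others are not reported here. NEFL and PECAM1 were not analysed here.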

Additional observations from a re-analysis of the deposited data

Results flagged for a closer look

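The response of SOX12 to the shCRX label differed between the lines by a log2 value of 1.29 by the interaction test (adjusted p = 0.0449 by edgeR), with 178.6 and 132.4 CPM on average in D425 shCRX and controls and 194.8 and 352.2 CPM in HD-MB03 shCRX and controls. The HD-MB03 parental library alone held 436 CPM, and the difference was 0.87 without it (adjusted p = 0.227 by edgeR).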

How the results depend on the processing

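Over the alternatives run, 21 values of single members changed sign, all of them values that had not passed. For NES in D425 (0.01) the log2 fold change was -0.060 without a low-count filter, -0.0018 with at least 10 counts in each library of a group, -0.33 with parental controls alone, -0.042 after thinning, -0.15 after GC and length correction, against 1.015 (adjusted p = 0.231 by edgeR) with vector controls alone, and -0.31 (without the D425 vector library) to 0.46 (without D425 parental replicate 2) when a library was left out. For MSI1 the difference between the lines (0.09) was -0.048 without a filter, -0.065 with vector controls alone, -0.30 after GC and length correction and -0.11 to 0.21 when a library was left out (lowest without the HD-MB03 parental library). In HD-MB03 SOX2 was -0.69 and SOX4 0.24 with parental controls alone. When a library was left out, SOX2 in HD-MB03 ranged from -0.68 (without the vector library) to 8.15 (without the parental library, a fitted value against 0 counts), and was -0.57 without shCRX replicate 2. SOX4 in HD-MB03 ranged from -0.53 (without the parental library) to 0.24 (without the vector library), and SOX11 from -0.23 (without shCRX replicate 1) to 0.045 (without shCRX replicate 2). VIM in D425 ranged from -0.0098 (without parental replicate 1) to 0.23 (without parental replicate 2). The cause was not tested.

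Of the 8 tested members, 1 was called in D425, which became 0 with vector or parental controls alone or with D425 libraries alone, 2 after GC and length correction (SOX11 and MSI1), and 0 to 1 when a library was left out. The 0 called in HD-MB03 became 3 by DESeq2, 2 without a filter and 1 (NES) with at least 10 counts, the replicate block, thinning, GC and length correction or HD-MB03 libraries alone, and 0 to 1 when a library was left out. The 1 called in the difference became 3 by DESeq2, without a filter or after thinning, 2 by limma-voom or with the replicate block (SOX11 in addition), and 0 with vector or parental controls alone, and 0 to 2 when a library was left out. The 0 in the mean of the lines became 4 by DESeq2 and 2 without a filter, and 0 to 1 when a library was left out. The 8 called between the lines include SOX2 and SOX9, which entered the tested set through HD-MB03 alone, so their calls are no test of a difference. The signs of SOX4, SOX11, SOX12, NES, MSI1 and VIM between the lines held when a library was left out.

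Over all genes, the 476 in D425 became 986 by DESeq2, 1211 without a filter, 8 with vector and 104 with parental controls alone and 283 after thinning, and 185 to 430 when a library was left out. The 241 in HD-MB03 became 806, 790, 1 and 62 in the first 4 of these settings and 495 with HD-MB03 libraries alone, and 15 to 329 when a library was left out. The 666 of the difference became 1370, 1579, 3 and 227 in those 4 settings and 335 after GC and length correction, and 177 to 841 when a library was left out. The 36 of the mean became 401, 405, 0 and 2 in those 4 settings, 18 with library totals, 61 with at least 10 counts, 57 with the replicate block and 62 after GC and length correction, and 3 to 71 when a library was left out. The 7365 between the lines became 4613 with vector controls alone, and library totals shifted that median by 0.111. D425 parental and shCRX libraries share only a replicate number (correlation of same-numbered deviations 0.0137 over 16006 genes), so the main fit had no block. With the replicate block NES in HD-MB03 (1.79) had an adjusted p of 0.0344 by edgeR and SOX11 in the difference (-2.69) one of 0.0450, and all-gene counts were 586 in D425 and 280 in HD-MB03. It changed no call of a member other than NES in HD-MB03 and SOX11 in the difference. Thinning, the GC and length correction and the fits of 1 line were chosen after seeing the data. The depth of the HD-MB03 controls, 2.08 and 1.96 M reads, limits SOX2, where 3 counts are 1.44 and 1.53 CPM.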

Other observations

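FABP5, the epidermal relative of FABP7 and a member of the neural stem list, was counted mainly in HD-MB03, with 0 counts in D425 shCRX and 1 in D425 controls, and 307 and 83 counts in HD-MB03 shCRX and controls (10.96 ± 0.561 and 21.96 ± 6.06 CPM, SD, n = 2 each). GJA1, the connexin 43 gene of astrocytes and radial glia, was likewise counted mainly in HD-MB03, with 0.577 and 0.488 CPM in D425 shCRX and controls and 149.8 and 96.2 CPM in HD-MB03 shCRX and controls. The other 5 astrocyte markers were low in both lines. GFAP had 1.41 and 1.04 CPM in D425 shCRX and controls and 0.214 and 0 CPM in HD-MB03 shCRX and controls, with 6 and 0 counts there, ALDOC 3.52 and 2.79 CPM in D425 shCRX and controls and 1.29 and 1.32 CPM in HD-MB03 shCRX and controls, ALDH1L1 and AQP4 at most 5 counts in a group, and S100B 0 counts. NEUROG1, a proneural factor gene, showed the opposite, with 1165 and 1274 counts in D425 shCRX and controls and 2 and 0 counts in HD-MB03 shCRX and controls. TBR1, a transcription factor gene of glutamatergic neurons, was lower in D425 (-4.66 ± 0.27, adjusted p = 5.35e-08 by edgeR). These genes were chosen after their values were seen. SOX13 was counted almost wholly in 1 library, with 43 of its 44 HD-MB03 shCRX counts in replicate 2 and 0 in the HD-MB03 controls.

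The protein-coding gene whose log2 CPM over the 10 libraries was most like that of SOX9, among 10458 with a mean of at least 5 CPM, was NTN1, the netrin 1 gene (Pearson r = 0.997). It was CTBP1 for SOX12 (0.969), RASSF2 for SOX2 (0.970), MINK1 for MSI1 (0.964), CHIC1 for VIM (0.949) and SYCP2L for NES (0.947). The 10 libraries come from 2 lines, and libraries of a line share its levels, so the values describe likeness of level and carry no p.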
